A study of Mus musculus with 9 samples.

Results

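Expression of 9 genes that control plasminogen activation and the start of blood coagulation was examined in MCEC, an established line labelled as endothelial cells from mouse heart. The genes were listed by symbol and looked up in the table of counts: the plasminogen activators Plat and Plau, the urokinase receptor Plaur, the serpins Serpine2 and Serpinb2, tissue factor (F3), thrombomodulin (Thbd), and the tissue factor pathway inhibitors Tfpi and Tfpi2. All 9 were found among the 55487 genes of the table, and 6 of them had enough counts to be tested. Poly-A RNA was sequenced from 3 groups of 3 libraries: unmodified cells (WT), cells with Zbtb46 knockdown (KD) and cells made to overexpress Zbtb46 (OE). Zbtb46 encodes a zinc finger transcription factor with a BTB domain. How Zbtb46 was lowered or raised, and whether a modified line is a single clone, are not given in the sources used here, and no cells with an empty vector were analysed here, so the alteration of Zbtb46 and the making of the lines cannot be told apart. The labels give separate libraries but do not say whether they came from separate cultures, so p values measure the spread between these libraries, which may be technical.

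Plasmin, the protease that dissolves fibrin and cuts matrix proteins, is made from plasminogen by tissue-type plasminogen activator (Plat) or urokinase (Plau). Urokinase is held at the cell surface by its receptor Plaur, and serpins such as Serpinb2 and Serpine2 inhibit the activators, Serpine2 also inhibiting thrombin. Coagulation starts when tissue factor (F3) binds factor VII, a step blocked by Tfpi, while Thbd on the endothelial surface turns thrombin towards the activation of protein C. Vascular endothelium is known as a source of Plat, Thbd and Tfpi.

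The libraries held 39491828 to 55745849 counts. Levels are given in CPM, that is, as counts relative to a common library total after TMM scaling, with the SD over the 3 libraries of a group. Differences were judged with the quasi-likelihood test of edgeR, with p values adjusted by the Benjamini-Hochberg method over all genes tested, and a change was called at an adjusted p under 0.05. Ribosomal RNA features took 7.44% to 17.3% of the counts in WT, 9.55% to 11.96% in KD and 14.4% to 18.2% in OE. Zbtb46 stood at 13.7 ± 0.623 CPM (SD, n = 3) in WT, at 11.2 ± 0.537 in KD and at 191 ± 2.67 in OE, so the libraries labelled KD held 17.8% less of its mRNA than WT and OE held 14-fold more. Of 12 endothelial markers, 4 exceeded 1 CPM on average in WT: Eng at 125 CPM, Egfl7 at 5.18, Kdr at 2.64 and Tek at 1.84. The defining endothelial genes Pecam1 and Cdh5 stood at 0.0578 and 0.0325 CPM, Erg had 0 counts in every library, and Cldn5, Icam2 and Emcn had at most 2, so these libraries go against the endothelial label for those markers. Of 6 fibroblast markers, Col1a1 reached 5260 CPM, Dcn 98.0 and Pdgfra 17.1 CPM in WT, while Col1a2 stood at 0.611 and Lum at 0.0232 CPM and Postn had 0 counts there. Of 5 leukocyte markers, Ptprc, Itgam and Adgre1 had at most 2 counts in any library, while Cd68 stood at 3.76 CPM and Csf1r at 0.489 CPM in WT.

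Per kilobase of exon, a scale that corrects for gene length, the urokinase receptor was the most abundant member in WT. The length joins the exons of all annotated transcripts, 6241 bases for Plat and 2617 for Plaur. It may exceed the length of the transcript expressed, and the order of the members depends on it. In CPM, Plat (60.2 ± 4.66) stood above Plaur (37.1 ± 2.91) in WT. Plaur had 14.2 ± 1.11 CPM per kb (SD, n = 3), Plat 9.64 ± 0.746, F3 9.46 ± 0.616, Tfpi 2.39 ± 0.140 and Plau 1.10 ± 0.0146. The levels of Plat and F3 differed by less than their spread, and the other neighbours in this order were separate. Plaur lay above 78.8% of the genes tested on this scale in WT, Plat above 71.0%, F3 above 70.5%, Tfpi above 42.3% and Plau above 30.3%. In OE the order was Plaur with 13.9 ± 0.520 CPM per kb, F3 with 8.75 ± 0.642, Plat with 3.64 ± 0.0742, Tfpi with 2.16 ± 0.0887 and Plau with 1.30 ± 0.122. Plat stood below F3 there on this scale, while in CPM Plat had 22.7 ± 0.463 and F3 22.1 ± 1.62.

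The other 4 members were barely detected or not detected. Serpinb2 had 55 counts and Thbd 62 over all 9 libraries together, of 421691953 counts in all. Serpine2 had 3 counts, 2 of them in KD replicate 2 and 1 in OE replicate 3. Tfpi2 had 0 counts in every library, which allows at most 3 counts, or 0.0538 to 0.0760 CPM depending on the library. These limits cover counting error only. Thrombomodulin, a gene by which endothelium is recognised, thus stood at 0.131 ± 0.0288 CPM (SD, n = 3) in WT.

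The tissue-type activator Plat showed the largest change among the members that were called. Its level was 56.5, 58.6 and 65.4 CPM in WT replicates 1 to 3, 52.3, 51.7 and 51.4 CPM in KD, and 22.5, 23.3 and 22.4 CPM in OE. The 3 OE libraries lay far below all others, and the KD libraries lay just below the lowest WT library. A lack of overlap, in either direction, was common. It held for 34.7% of all tested genes between KD and WT, 45.1% between OE and WT and 55.4% between OE and KD. OE held 2.65-fold less Plat than WT, or -1.40 on the log2 scale (SE 0.066, adjusted p 1.52e-13 in edgeR). In the same comparison, 3.61% of all tested genes had a larger change. In KD it was 13.9% below WT, or -0.22 on the log2 scale (SE 0.064, adjusted p 0.0088 in edgeR). Plat lies on the plus strand of GRCm38 at chr8:22757727-22782844 and overlaps no other gene in GENCODE M21. The summed level of the 12 endothelial markers, most of it from Eng, ran in the same order as Plat, from 129 to 143 CPM in WT, 113 to 118 in KD and 87.0 to 94.3 in OE. That of the 6 fibroblast markers, nearly all from Col1a1, ran from 5110 to 5680 CPM in WT, 4850 to 4910 in KD and 4040 to 4130 in OE. The 6 smooth muscle and pericyte markers, Acta2 the largest, summed to between 11.3 and 14.6 CPM in WT, 7.03 and 7.21 in KD, and 4.02 and 4.63 in OE. Other marker sums did not follow this order. Cardiomyocyte markers summed to 2.4 to 2.86 CPM (WT), 2.03 to 2.3 (KD) and 2.28 to 2.98 (OE). Leukocyte markers were highest for KD, at 5.18 to 5.62 CPM, against 4.01 to 4.45 (WT) and 3.16 to 4.5 (OE). Among endothelial markers above 1 CPM, the means of Eng, Egfl7 and Tek had the Plat order. Kdr did not, at 2.64 CPM (WT), 1.4 (KD) and 1.77 (OE). The part of the marker changes in the Plat result was not tested. Fewer cells with a transcript and less of it per cell cannot be told apart in bulk RNA.

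Urokinase differed in the other direction between the modified lines. Plau (chr14:20836660-20843385, plus strand) had 2.61, 2.55 and 2.62 CPM in WT, 1.67, 2.11 and 1.29 CPM in KD, and 2.84, 3.39 and 2.98 CPM in OE. The 3 groups did not overlap, with KD lowest and OE highest. Of all tested genes, 34.7% did not overlap between KD and WT, 45.1% between OE and WT and 55.4% between OE and KD. The KD libraries were spread more widely in Plau, with a coefficient of variation of 24.3% against 1.33% in WT. Plau had 63 to 168 counts per library. At such counts the WT coefficient of variation is below what counting error alone gives, so it shows no special stability of WT. KD held 35.2% less Plau than WT, or -0.63 on the log2 scale (SE 0.20, adjusted p 0.0242 in edgeR). That call was lost on leaving out WT replicate 1 (adjusted p 0.0543), KD replicate 1 (adjusted p 0.0712) or KD replicate 3 (-0.46 on the log2 scale, adjusted p 0.140), all in edgeR. The rise from WT to OE, 0.24 on the log2 scale, did not pass, with an adjusted p of 0.336 in edgeR. Its 95% interval in limma-voom, -0.12 to 0.60, was wider than the SE of 0.077 from log2 CPM would give. Between OE and KD the level was 1.83-fold higher in OE (log2 fold change 0.87, SE 0.21, adjusted p 0.000866 in edgeR).

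**Figure D1:**
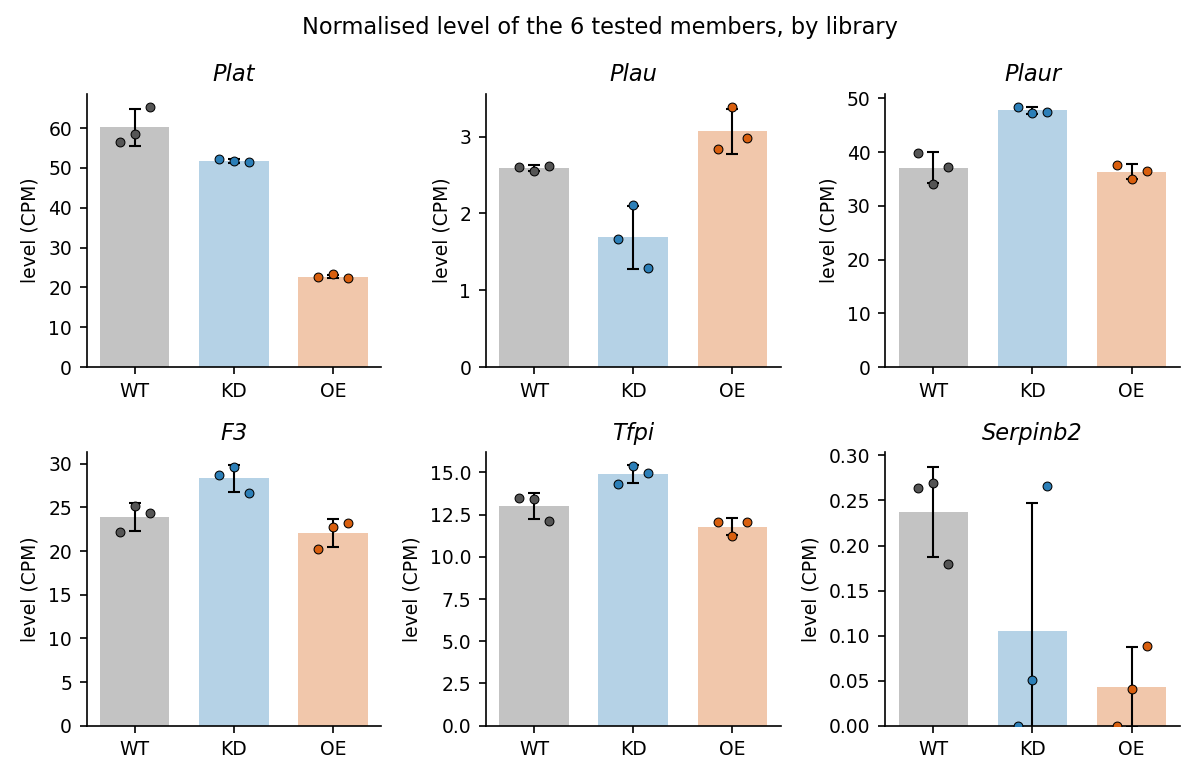
Normalised level in CPM (vertical axes, each from 0) of the 6 tested members in WT, KD and OE; points are the 3 libraries of a group, bars the mean and error bars the SD. Plat sits between 22.4 and 23.3 CPM in OE and above 51 CPM elsewhere, Plau is lowest in KD, and Plaur, F3 and Tfpi are highest in KD.

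Plaur, F3 and Tfpi were each highest in KD. The urokinase receptor Plaur (chr7:24462484-24475968, plus strand) had 39.9, 34.1 and 37.3 CPM in WT, 48.5, 47.4 and 47.5 CPM in KD, and 37.7, 34.97 and 36.5 CPM in OE. The KD libraries lay above all others, while WT and OE overlapped. Between KD and WT 34.7% of all tested genes did not overlap in either direction, and 55.4% between OE and KD. Plaur was 1.29-fold higher in KD than in WT (log2 fold change 0.37, SE 0.067, adjusted p 0.000135 in edgeR). OE differed from WT by -0.02 on the log2 scale (adjusted p 0.795 in edgeR), with a 95% interval of -0.15 to 0.12 in limma-voom. OE was 23.9% lower than KD (log2 fold change -0.39, SE 0.033, adjusted p 1.74e-05 in edgeR).

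Tissue factor, F3 (chr3:121723537-121735048, plus strand), had 22.2, 25.1 and 24.4 CPM in WT, 28.7, 29.6 and 26.7 CPM in KD, and 20.3, 22.8 and 23.3 CPM in OE. KD was separate from both other groups, which overlapped each other. Such a separation held for 34.7% of all tested genes between KD and WT and for 55.4% between OE and KD. F3 was 1.18-fold higher in KD than in WT (log2 fold change 0.24, SE 0.071, adjusted p 0.0201 in edgeR). The call was lost with library totals in place of TMM (log2 fold change 0.20, adjusted p 0.130) and on leaving out WT replicate 1 (0.0979), and likewise KD replicate 1 (0.0729) or KD replicate 2 (0.115), as adjusted p values in edgeR. OE differed from WT by -0.12 on the log2 scale (SE 0.083, adjusted p 0.243 in edgeR), with a 95% interval of -0.28 to 0.04 in limma-voom, and was 21.9% lower than KD (log2 fold change -0.36, SE 0.077, adjusted p 0.000415 in edgeR).

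Its inhibitor Tfpi (chr2:84432855-84476775, minus strand) had 13.5, 13.4 and 12.2 CPM in WT, 14.3, 15.4 and 15.0 CPM in KD, and 12.1, 11.2 and 12.1 CPM in OE. The groups did not overlap, but 34.7% of all tested genes did not overlap between KD and WT either, 45.1% between OE and WT and 55.4% between OE and KD. KD and OE each differed from WT in Tfpi by less than the test could call. The change from WT was 0.19 on the log2 scale in KD (SE 0.058, adjusted p 0.106 in edgeR) and -0.14 in OE (SE 0.060, adjusted p 0.189 in edgeR), with 95% intervals of 0.02 to 0.35 and -0.32 to 0.03 in limma-voom, not adjusted for the number of genes. Between the modified lines, Tfpi was 20.9% lower in OE than in KD (log2 fold change -0.34, SE 0.046, adjusted p 0.00219 in edgeR).

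Plaur, F3 and Tfpi were all called lower in OE than in KD, as was Plat, for which no start window was found. The 250 bases before the start sites of these 3 members are shown, from RefSeq on GRCm38.p6, 5′ to 3′ on the strand of the gene. Capitals mark the AP-1 letters TGAGTCA and the GC box letters GGGCGG, each searched on both strands. The windows are chr7:24462233-24462482 (plus strand) for Plaur, chr3:121723287-121723536 (plus strand) for F3 and chr2:84476760-84477009 (minus strand) for Tfpi, the last being the start nearest to the annotated end of the gene among the 2 starts listed.
Plaur: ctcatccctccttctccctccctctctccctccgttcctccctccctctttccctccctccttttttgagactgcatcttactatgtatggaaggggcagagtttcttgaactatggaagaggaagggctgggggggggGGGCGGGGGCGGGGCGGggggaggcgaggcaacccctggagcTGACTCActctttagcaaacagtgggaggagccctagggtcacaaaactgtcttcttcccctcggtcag
F3: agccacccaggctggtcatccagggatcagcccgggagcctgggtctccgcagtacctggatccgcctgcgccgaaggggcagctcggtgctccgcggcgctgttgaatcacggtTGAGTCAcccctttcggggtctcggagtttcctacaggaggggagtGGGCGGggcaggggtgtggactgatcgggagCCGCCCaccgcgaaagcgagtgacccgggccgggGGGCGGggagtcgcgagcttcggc
Tfpi: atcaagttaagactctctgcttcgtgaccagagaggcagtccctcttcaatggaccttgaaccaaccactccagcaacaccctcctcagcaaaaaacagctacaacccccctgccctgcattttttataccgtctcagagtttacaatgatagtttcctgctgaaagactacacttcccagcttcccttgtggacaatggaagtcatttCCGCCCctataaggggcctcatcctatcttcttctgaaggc
The Plaur and F3 windows each held 1 AP-1 match, beginning 69 and 135 bases before the start, and 3 GC boxes, of which the last 2 in Plaur overlap in 1 base. The Tfpi window held 1 GC box, 41 bases before the start, and 0 AP-1 matches. Also searched on both strands, and not marked, were the CRE letters TGACGTCA, with 0 matches in the 3 windows, and the TATA letters TATAAA. The TATA letters matched only in Tfpi, on the opposite strand. They read TTTATA in the sequence printed, beginning 127 bases before the start. The AP-1 letters occur in 4.46% and the GC box letters in 32.7% of the 32851 windows of this length in the table. For the CRE and TATA letters the shares are 1.55% and 12.4%. A match describes the letters and does not show that a factor binds there.

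Among the serpins, Serpinb2 was the only member with enough counts for a test, and few at that. Serpinb2 (chr1:107511423-107535478, plus strand), an inhibitor of urokinase and of Plat, had 10, 16 and 8 counts in WT replicates 1 to 3, 0, 2 and 13 counts in KD, and 0, 2 and 4 counts in OE. OE lay below WT without overlap, where 45.1% of all tested genes had no overlap in either direction. KD replicate 3 reached the WT range. On the CPM scale its level was 0.237 ± 0.0504 (SD, n = 3) for WT, 0.106 ± 0.142 for KD and 0.0431 ± 0.0445 for OE. At such counts an SE from log2 CPM with a prior count of 2 is too small beside the fitted change. The fitted change in OE against WT, -2.41 on the log2 scale (SE 0.50), did not pass, with an adjusted p of 0.0557 in edgeR. It passed in 5 of the 17 alternatives that gave a test, with adjusted p values from 0.0356 (limma-voom) to 0.0459, and the adjusted p over all alternatives ran up to 0.373. KD against WT had a fitted change of -1.13 (SE 0.85, adjusted p 0.385 in edgeR). The gene overlaps Serpinb10 on the same strand, and reads in the overlap could have been assigned to either.

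Thbd had 6, 6 and 6 counts in WT, 14, 6 and 2 in KD, and 2, 16 and 4 in OE. The groups overlapped throughout, and the gene did not pass the filter on low counts with all 9 libraries. It was tested in 8 alternatives, 7 of them with a library left out, and called in 0, with adjusted p values from 0.626 to 0.955 for KD and from 0.582 to 0.966 for OE against WT in edgeR. A change in thrombomodulin was not detectable at this depth.

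Counted over the members, KD differed from WT in 4 of the 6 tested, 2 higher (Plaur, F3) and 2 lower (Plau, Plat), where 21.3% of all 16955 genes tested were called, 11% higher and 10.4% lower. In OE against WT 1 of 6 was called, Plat, which was lower, where 36.4% of all genes were, 17% higher and 19.5% lower. In OE against KD 5 of 6 were called, 1 higher (Plau) and 4 lower (Plat, Plaur, F3, Tfpi), where 41.5% of all genes were, 19.4% higher and 22.1% lower. Over the 3 groups together 5 of 6 members passed, beside 47.7% of all genes, Serpinb2 being the exception (adjusted p 0.107 in edgeR). The 6 tested members had a median log2 fold change of -0.01 for KD and -0.13 for OE relative to WT, and of -0.38 for OE relative to KD, beside -0.002, 0.002 and 0.01 over all genes tested. The count in KD fell to 2 without WT replicate 1 or KD replicate 1. With library totals in place of TMM, the share of higher genes among all those called was 35.8% instead of 51.4% for KD and 31.6% instead of 46.6% for OE, each relative to WT. The comparisons with WT share the 3 WT libraries and are not independent of each other.

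**Figure D2:**
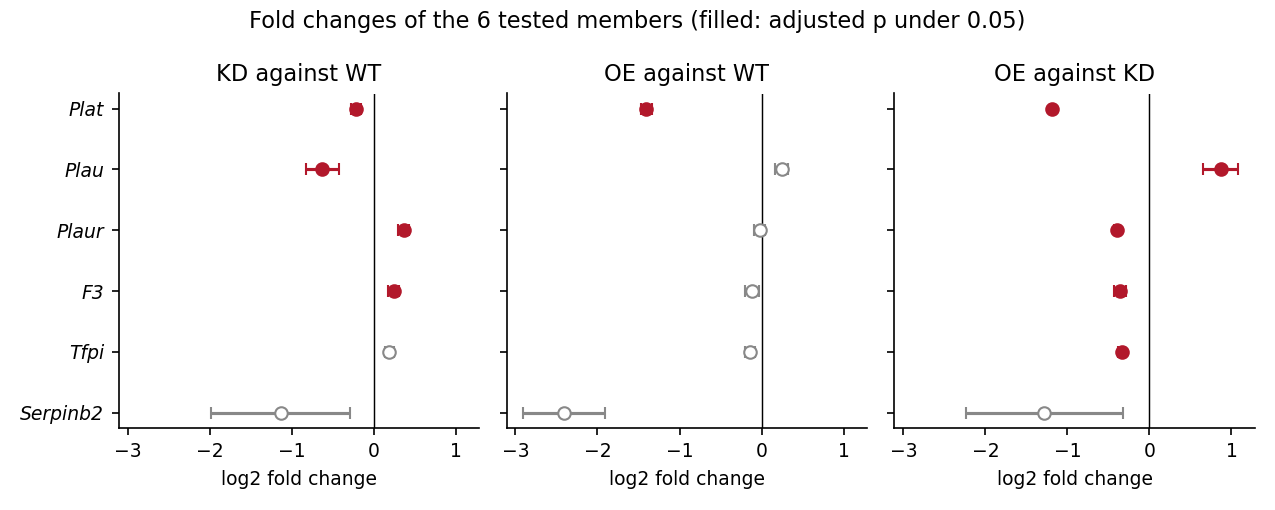
Log2 fold change (horizontal axis) of the 6 tested members in the 3 comparisons, KD and OE against WT and OE against KD; bars are the SE from the spread of log2 CPM between libraries, and filled points passed an adjusted p of 0.05 over all genes. Plat is at -1.40 in OE against WT, where it alone is filled, and Plau is the only filled point right of 0 in OE against KD.

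Ratios of members within a library do not depend on the scaling between libraries. Their size depends on the exon lengths, which are the same for every library. Per kilobase of exon, the counts of Plat were 8.21, 8.71 and 9.48 times those of Plau in WT, 11.9, 9.29 and 15.1 times in KD, and 3.01, 2.60 and 2.85 times in OE. The OE ratios lay below all others, and the WT and KD ratios overlapped. The ratio of Plau to its receptor Plaur was 0.0776 ± 0.00527 (SD, n = 3) for WT, 0.0391 ± 0.00967 for KD and 0.0935 ± 0.0124 for OE. Its KD values, 0.0300 to 0.0493, lay below the lowest WT value of 0.0723, and the lowest OE value, 0.0832, lay just above the highest WT value, 0.0828. The ratio of F3 to its inhibitor Tfpi was 3.98 ± 0.401 for WT, 4.11 ± 0.245 for KD and 4.06 ± 0.395 for OE, with all 3 groups overlapping between 3.55 and 4.39. Over the 3 groups, an exact permutation test of the log2 ratio, added after the data were seen, gave p = 0.00714 for Plat to Plau, 0.00357 for Plau to Plaur, the smallest value that the 1680 arrangements can give, and 0.839 for F3 to Tfpi. Adjusted over the 4 ratios computed, these exact p values were 0.00952, 0.00714 and 0.839. The test does not say which groups differ.

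**Figure D3:**
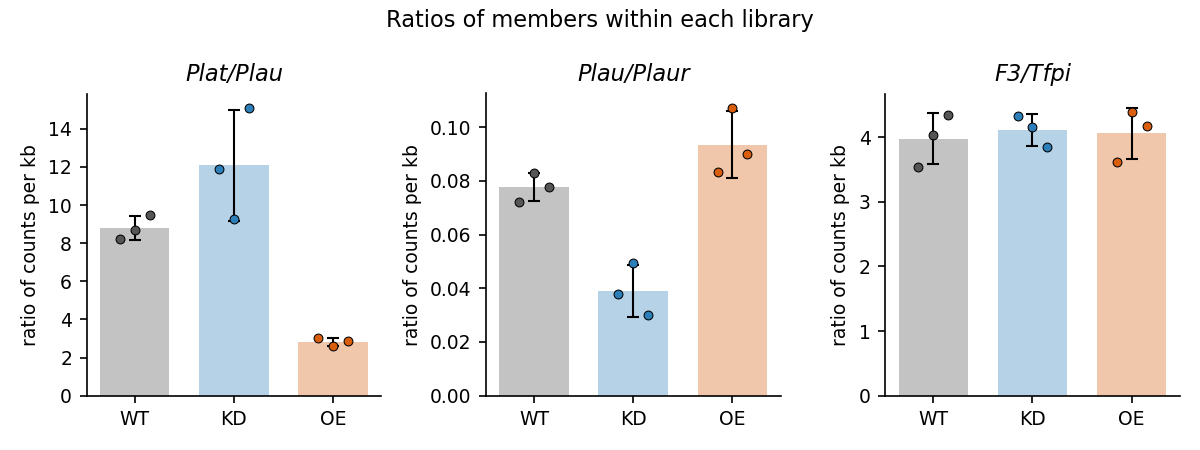
Ratios of counts per kilobase of exon (vertical axes, each from 0) of Plat to Plau, Plau to Plaur and F3 to Tfpi; points are the 3 libraries of each group, bars the mean and error bars the SD. The Plat to Plau ratio lies between 2.60 and 3.01 in OE and at 8.21 or more elsewhere, the Plau to Plaur ratio is lowest in KD, and the F3 to Tfpi ratio overlaps between all groups.

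For each tested member, the gene most like it was sought by the Pearson correlation of log2 CPM over the 9 libraries among 9938 other genes with at least 5 CPM in a group. The libraries form 3 groups that all genes share, so these values describe likeness and carry no test. Plat was most like Col4a1, a chain of basement membrane collagen IV (r = 0.997), which had 2125 CPM in WT, 1990.0 in KD and 1148 in OE, and 464 genes exceeded 0.95 with Plat. Plau was most like Scmh1, a Polycomb group gene (r = 0.985), and 7 genes exceeded 0.95. Plaur was most like Mcfd2 (r = 0.971), which encodes part of the cargo receptor that carries coagulation factors V and VIII out of the endoplasmic reticulum. Tfpi was most like Sat1, an enzyme of polyamine breakdown (r = 0.990), with 18.04 CPM in WT, 23.1 in KD and 15.4 in OE. For Serpinb2, whose values rest on 55 counts, the highest value was 0.935 with Tradd, an adaptor of the TNF receptor.

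The genes around the members were examined on GRCm38. The 20 Mb windows that hold the tested members had medians from -0.04 to 0.05 on the log2 scale in OE and from -0.05 to 0.02 in KD, each relative to WT. In the window of Plat, from 20 to 40 Mb of chromosome 8, the median over 104 tested genes was 0.009 in OE, and subtracting it left Plat at -1.41. Within 2 Mb of Plat, 11 of 24 tested genes were called in OE against WT, where 36.4% of all genes were, and their median was 0.15, opposite in sign to the change of Plat. Around F3 the sign was the same as that of F3: the 30 tested genes within 2 Mb had a median of -0.18 in OE against WT, where F3, not called, was at -0.12. In OE against KD their median was -0.16, with 13 of the 30 called beside 41.5% of all genes, and F3 was at -0.36; the part of its surroundings in the F3 result was not tested. Around Tfpi, called in the latter comparison at -0.34, the median of 32 genes was 0.18, and around Plau, at 0.87, that of 35 genes was -0.08. Around Plaur, at -0.39, the median of 55 genes was -0.06, of the same sign and smaller.

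Of 51 other genes of plasminogen activation and coagulation, 23 were tested, and the pathway outside the members was thus only partly expressed. Among the 28 not tested, 18 had at most 3 counts in every library and 6 of these had 0; Plg itself had at most 1 count, and Vwf, the adhesive protein stored by endothelium, 0.0957 ± 0.0576 CPM (SD, n = 3) in WT. Of 15 coagulation factors and related plasma proteins only F8 was tested. In KD against WT, 6 of the 23 were higher and 2 lower, 34.8% in all, with a median of 0.07 on the log2 scale. For OE relative to WT, 6 were higher and 9 lower, 65.2% in all, with a median of -0.10, and relative to KD 5 were higher and 13 lower, 78.3% in all, with a median of -0.18. These shares stand beside the 21.3%, 36.4% and 41.5% of all genes given above.

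In KD the largest change in this list was the fall of Gas6, a vitamin K-dependent relative of protein S that activates TAM receptor kinases and is not itself a clotting factor. Gas6 had 446, 697 and 580 counts in WT replicates 1 to 3, 58, 37 and 54 in KD, and 1020, 1066 and 1024 in OE. The groups did not overlap, with KD far below WT and OE above it. Without overlap were also 34.7% of all tested genes between KD and WT, 45.1% between OE and WT and 55.4% between OE and KD. Its level was 12.1 ± 0.717 CPM (SD, n = 3) in WT, 1.06 ± 0.118 in KD (log2 fold change -3.50, SE 0.10, adjusted p 8.93e-15 in edgeR) and 22.0 ± 0.660 in OE (0.86, SE 0.054, adjusted p 7.16e-08 in edgeR). Serpinb8, an intracellular serpin, moved in the opposite sense, from 1.65 ± 0.121 CPM in WT to 3.90 ± 0.381 in KD and 0.643 ± 0.202 in OE, with log2 fold changes of 1.24 and -1.36 and a highest adjusted p of 0.000137 in edgeR.

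Anxa2, which binds plasminogen and Plat at the cell surface, had 786 ± 31.7 CPM in WT, 981 ± 27.9 in KD and 534 ± 19.7 in OE, with log2 fold changes of 0.32 (adjusted p 1.03e-05 in edgeR) and -0.56 (adjusted p 1.04e-09 in edgeR). Its partner S100a10 was not called in KD (0.07, adjusted p 0.281) or OE (-0.06, adjusted p 0.272) against WT in edgeR. Eno1, a glycolytic enzyme that also binds plasminogen at the surface, had 1096 ± 33.7 CPM in WT, 939 ± 15.9 in KD and 1847 ± 35.6 in OE, with log2 fold changes of -0.22 and 0.75. Near-identical copies of Eno1 exist in the mouse genome, and how the counting treated them is not given in the sources used here. Mcfd2 was the third largest rise in KD, from 69.0 ± 1.82 to 81.6 ± 2.15 CPM (log2 fold change 0.24, adjusted p 0.000582 in edgeR).

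In OE the largest rise was that of Vldlr, an endocytic receptor that takes up complexes of proteases with their inhibitors, from 6.36 ± 0.463 to 17.0 ± 0.547 CPM (SD, n = 3; log2 fold change 1.43, adjusted p 1.80e-10 in edgeR). The largest falls were those of Serpind1, Serpinb8 and F2r. Serpind1, which encodes the thrombin inhibitor heparin cofactor II, had 35, 44 and 30 counts in WT and 6, 2 and 0 in OE. Its fitted log2 fold change of -3.71 (SE 0.59, adjusted p 1.79e-05 in edgeR) depends on few reads. At such counts the SE, from log2 CPM with a prior count of 2, is too small beside the fitted change. F2r, the main thrombin receptor of many vascular cells, fell from 155 ± 9.59 to 100.04 ± 0.815 CPM (log2 fold change -0.63, SE 0.053, adjusted p 9.51e-10 in edgeR), and in KD it stood at 142 ± 4.17 CPM (-0.13, adjusted p 0.0537 in edgeR).

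**Figure D4:**
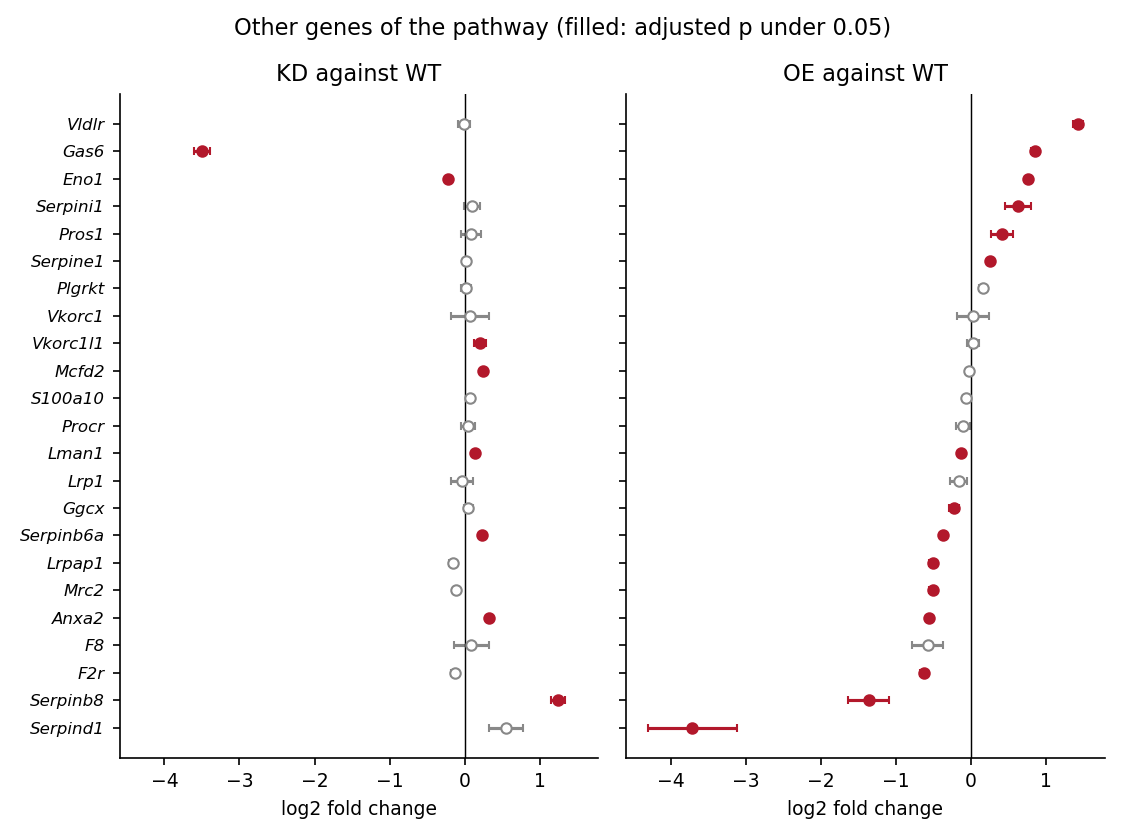
Log2 fold change (horizontal axis) of the 23 tested genes of the pathway other than the members, in KD and in OE against WT; bars are the SE, and filled points passed an adjusted p of 0.05 over all genes. Gas6 lies at -3.50 in KD and at 0.86 in OE, and Serpinb8 at 1.24 in KD and at -1.36 in OE.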

How the data were processed

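The table deposited by the authors holds raw read counts (whole numbers, by their values) for each Ensembl gene in each library; the aligner, counting program and use of strand are not given in the sources used here, and GRCm38 (mm10) is named per the submitters' processing notes. The 168 genes that appeared on several rows with identical counts were counted once. Genes passing filterByExpr (16955) were scaled with TMM and fitted over all 9 libraries with group as the only term in edgeR 4.0.16 (quasi-likelihood, robust) in R 4.3.3, with Benjamini-Hochberg adjustment over all genes tested and a threshold of 0.05. SEs came from log2 CPM (prior count 2). Intervals came from limma 3.58.1 (voom); DESeq2 1.42.0 was an alternative. Loci and exon lengths came from GENCODE M21, start sites from RefSeq, read with pandas 2.3.3. RefSeq start windows were found for 6 of the 9 members and not for Plat, Plau and Thbd.

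Named were all members, for each tested member the most similar gene, and in the pathway list the 3 largest rises and 3 largest falls among called genes in KD and in OE against WT; S100a10, Plg, Vwf and F8 were named after their values were seen. A selected gene is not reported here. Members and lists were chosen with earlier results of these data known. The procedure was tested on simulated counts with the same dispersion for every gene and group. That setting is simpler than these data and does not vouch for calls at low counts. Replicates differed by 3.01 to 11.2 times the chi-square of sampling noise, so none was treated as a repeat.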

Additional observations from a re-analysis of the deposited data

How the results depend on the processing

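Alternatives changed the scaling, filter, tool, fitted samples, replicate block, minimum fold change or libraries, one choice at a time; for the pathway list they were added after the data were seen. No called change of a member changed sign. Against a minimum fold change of 1.5, members called were 0 in KD against WT and 1 (Plat) in OE against KD; all genes called in these 3 comparisons (KD and OE against WT, OE against KD) were 274, 794 and 1331, in place of 3617, 6174 and 7031, and pathway genes 2, 5 and 6 in place of 8, 15 and 18. Members called in OE against WT rose from 1 to 2, by Serpinb2, with library totals alone, with limma-voom or with the replicate block. Leaving out 1 library, the members called ranged from 2 to 4 for KD and from 1 to 2 for OE relative to WT, and stayed at 5 for OE relative to KD; Serpinb2 was called in OE without KD replicate 1 or KD replicate 3. Libraries with the same replicate number did not deviate together (correlations from -0.04 to 0.05 over 9 pairs). No pairing by number was thus seen, but the labels do not say whether such libraries were handled together. The replicate block changed no other count of members. The change of Plat in OE ran from -1.47 to -1.35 over all alternatives. Members with few counts limit what depth can show: Serpine2, Thbd and Tfpi2 allow no statement on a change.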
